A study of Mus musculus with 4 samples.

Results

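The genes described here are 41 mouse genes of the heat shock response and the unfolded protein response, out of 21887 nuclear protein-coding genes. They were chosen by name, with earlier results of these data known. Of these, 24 serve protein folding and stress signalling in the endoplasmic reticulum (ER). A further 3 are mitochondrial chaperones, and 14 are cytosolic chaperones and heat shock factors. Each was searched for peaks of HA-tagged Fbxl10 within 1 kb and within 5 kb of the start or the end of the gene, on the mm10 build. Mouse embryonic fibroblasts (MEFs), cultured fibroblasts from mouse embryos, were used in all libraries, and all of them carried the HA-Fbxl10 gain of function construct. Induced cells had received 1 µg/ml doxycycline for 48 hours, and non-induced cells had received none. Chromatin immunoprecipitation and sequencing (ChIP-seq) with an HA antibody gave 1 peak list for induced cells (5497 peaks) and 1 for non-induced cells (10532 peaks). Input libraries of both conditions were also labelled and were not used here. The labels mention 3 independent ChIP samples without relating them to the lists, so no result below has a replicate check and none is a test between conditions. What drives the construct, and how many embryos the cells came from, is not stated in the labels, and peaks give no expression values with which the labelled cell type could be checked. Read depth is unknown. Each peak has a score, the authors' own value, whose lowest value was 50 (induced) and 50.01 (non-induced).

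Fbxl10, also called Kdm2b, is a histone demethylase with a CXXC zinc finger, a domain that binds CpG dinucleotides that are not methylated. Heat and other protein-damaging stress activate the heat shock factors, which switch on cytosolic chaperones of the Hsp70, Hsp90, Hsp40 and small heat shock families. Misfolded protein in the ER is sensed by Ern1, Eif2ak3 and Atf6, which act through the transcription factors Xbp1, Atf4 and Ddit3 and through cleaved Atf6 itself to raise ER chaperones, oxidoreductases and the degradation machinery. In fibroblasts, which secrete much collagen, the ER part of this system is in steady use.

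Of the 41 genes, 17 (41.5%) had an induced peak within 1 kb of either end, where 13.4% of all protein-coding genes had one. The exact 95% binomial interval of the members' share was 26.3% to 57.9% and covers counting error only. It does not cover the choice of the genes, which was made with earlier results of these data known. None of the 41 had a non-induced peak within 1 kb, which allows a share of up to 7.32%, and 1.59% of all genes had one. With a background this low, the 0 is no result about these genes. Within 5 kb, 20 members (48.8%, interval 32.9% to 64.9%) had an induced peak, beside 18.4% of all genes. In the non-induced list 4 members (9.76%, interval 2.72% to 23.1%) had a peak within 5 kb, beside 5.36% of all genes. That count was 1 (2.44%) when the lists were set to equal size, beside 2.87% of all genes, and 1 at scores from the median of both lists upward, beside 2.54%, so the non-induced share was near the background there. The 17 genes were reached by 18 different induced peaks, since Hspa4 had 2 and no peak was shared by members.

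**Figure D1:**
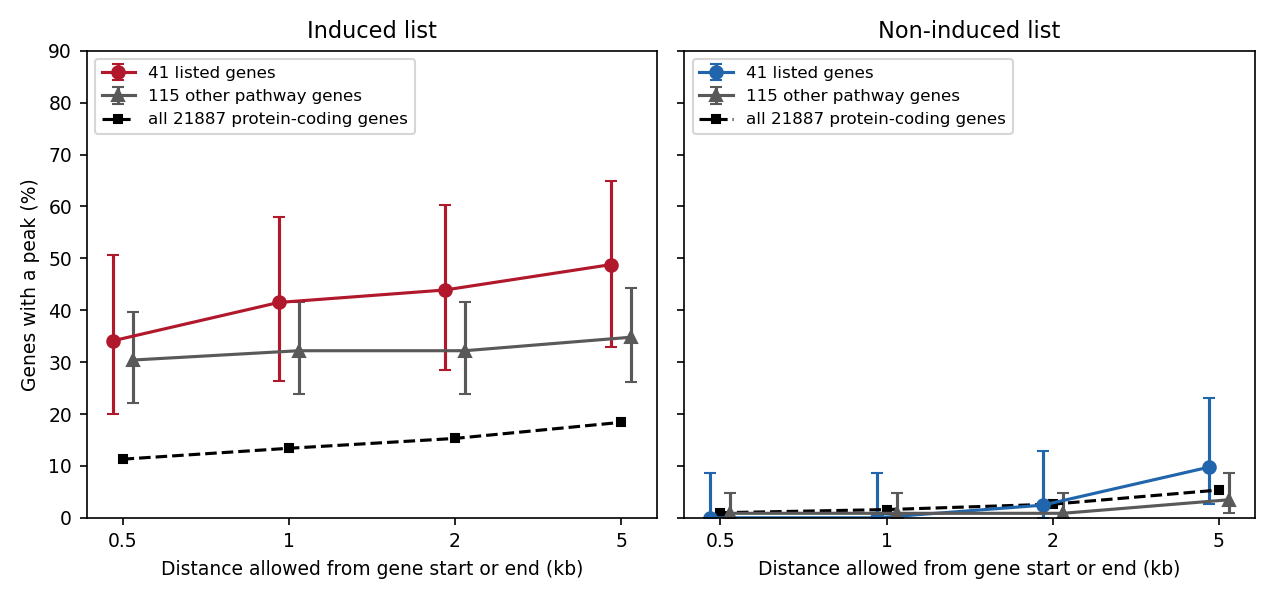
Share of genes with a peak (vertical axis, %) by the distance allowed from the gene start or end (horizontal axis, kb), for the induced list (left) and the non-induced list (right). Circles are the 41 listed genes, triangles 115 other genes of the pathway and squares all 21887 protein-coding genes; bars are exact 95% binomial intervals. In the induced list the members run between 34.1% and 48.8% and all genes between 11.3% and 18.4%.

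Scores of the 18 member peaks ran between 50.2 and 336, with a median of 96.4. The 2591 induced peaks within 1 kb of any protein-coding gene had a median of 78.6. Of the member peaks 7 (38.9%) had a score of at least 100, beside 29.9% of the peaks at all genes and 21.2% of the whole induced list. The member peaks were 544 to 2089 bp wide, with a median of 937.5 bp against 864 bp at all genes. By score they ranked from number 20 to number 5446 of the 5497 induced peaks.

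**Figure D2:**
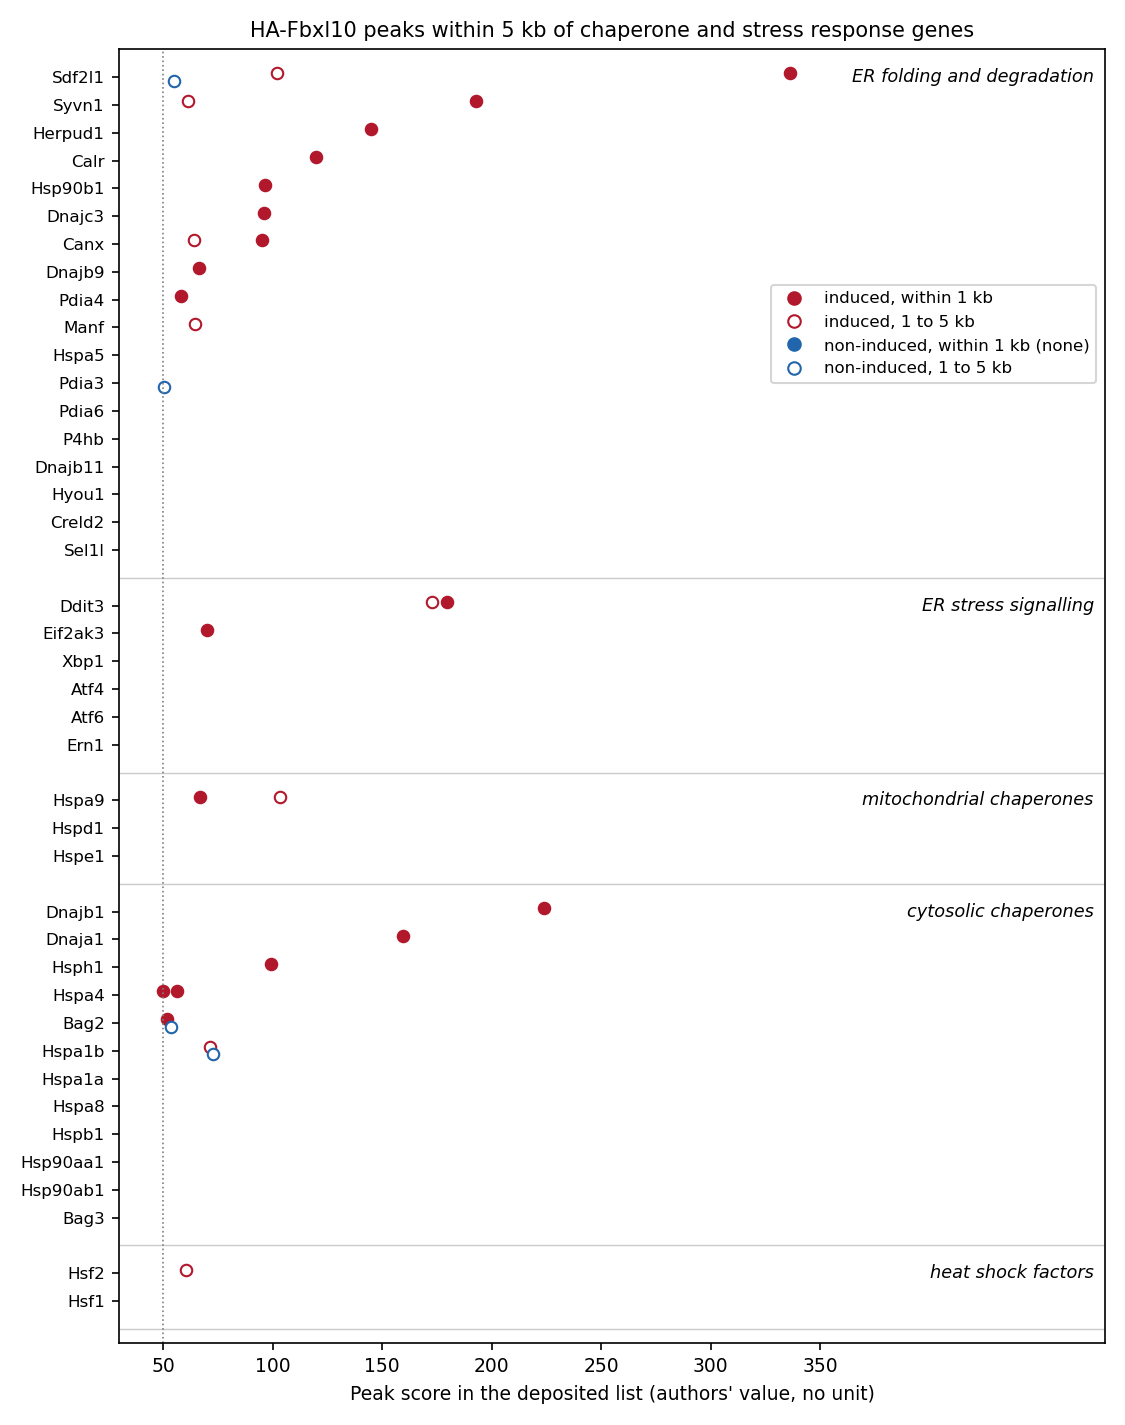
Score of each peak (horizontal axis, the authors' value without unit) within 5 kb of the 41 genes (rows, by function). Filled circles are peaks within 1 kb and open circles peaks between 1 and 5 kb, red for the induced and blue for the non-induced list; the dotted line marks a score of 50. Filled circles are all red, and the 5 genes with the highest are Sdf2l1, Dnajb1, Syvn1, Ddit3 and Dnaja1.

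The folding and degradation genes of the ER held 9 of the 17 genes with an induced peak within 1 kb, out of 18 (50%, interval 26.0% to 74.0%). Of all protein-coding genes 13.4% had one. Sdf2l1, a stress-induced ER protein that works with the chaperone BiP, had the highest score of all members, 336, at chr16:17131037-17132516. That peak was number 20 of the 5497 induced peaks by score and began 133 bp before the gene start. Parts of the degradation route for misfolded ER protein followed. Syvn1, the ubiquitin ligase also called Hrd1, had a peak of score 193 (chr19:6045871-6047284, rank 175), and Herpud1, which assembles with that ligase, one of score 145 (chr8:94386414-94387511, rank 418). Sel1l, the partner that stabilises Syvn1, had none within 5 kb in either list, and its nearest induced peak was 862 kb away.

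The lectin chaperones Calr and Canx, which hold glycoproteins while they fold, had induced peaks of score 119.8 and 95.02. Hsp90b1, the ER member of the Hsp90 family, had one of 96.7. Among co-chaperones of BiP, Dnajc3 had a score of 96.1 and Dnajb9 of 66.6, whereas Dnajb11 had no peak within 5 kb. Of the protein disulfide isomerases, which form and reshuffle disulfide bonds, Pdia4 had an induced peak of score 58.0. Its relatives Pdia6 and P4hb had none within 5 kb in either list, and Pdia3 had a non-induced one only, of score 50.4 and 3.57 kb inside the gene from its start. Hspa5, which encodes BiP itself, the central ER chaperone, had no peak in either list within 5 kb. Its closest induced peak was at 88.1 kb and its closest non-induced peak at 300132 bp. Hyou1, its nucleotide exchange factor, and Creld2, a stress-induced ER protein, had none within 5 kb either. Manf, a secreted stress-induced factor, had an induced peak of score 64.5 at 2.85 kb, which overlapped the neighbouring gene Rbm15b. Beyond 1 kb, Canx had a further induced peak of score 64.0 at 2.35 kb, inside Maml1, and Syvn1 one of 61.6 at 3.99 kb, at Mrpl49 and Fau.

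Of the 6 signalling genes 2 (33.3%, interval 4.33% to 77.7%) had an induced peak within 1 kb. That interval holds the 13.4% of all genes. Ddit3, the stress transcription factor also called Chop, had a peak of score 179.5 across its start (chr10:127290388-127291490, rank 221). A second induced peak of score 173 lay 2.12 kb upstream inside Mbd6, the neighbouring gene, which also overlapped the first peak. Eif2ak3, the ER kinase also called Perk, had a peak of score 70.1 that began 668 bp inside the gene. Ern1, the sensor also called Ire1, had no peak within 5 kb of either end but 2 induced peaks deeper in its body, of which the one nearer to an end had a score of 64.9. Atf6 had 1 non-induced peak of score 52.0 in its body, 77.3 kb from the nearer end. Xbp1 and Atf4, the transcription factors of the other 2 branches beside Atf6, had none within 5 kb, and for Atf4 the nearest induced peak was 6.35 kb away.

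Among the 14 cytosolic genes, 5 (35.7%, interval 12.8% to 64.9%) had an induced peak within 1 kb. That interval holds the 13.4% of all genes. The 2 highest peaks belonged to Hsp40 co-chaperones, which hand clients to Hsp70: Dnajb1 with a score of 224 (chr8:83607721-83609809, rank 95) and Dnaja1 with 159 (chr4:40721869-40722994, rank 311). Hsph1, an Hsp110 nucleotide exchange factor for Hsp70, had a peak of score 99.45. Its relative Hspa4 had a pair of weak neighbouring peaks, of 56.4 and 50.2, the second close to the lower limit of the list. Bag2, a co-chaperone that inhibits the ubiquitin ligase Stub1, had an induced peak of score 51.8 that began 904 bp inside the gene, the farthest peak still counted within 1 kb. It also had a non-induced peak of score 53.5, 1.37 kb upstream, and these peaks did not overlap.

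The typical cytosolic Hsp70 and Hsp90 genes had no peak within 1 kb. The constitutive Hspa8, the small heat shock gene Hspb1, the Hsp90 genes Hsp90aa1 and Hsp90ab1, and Bag3, which links Hsp70 to autophagy, had none within 5 kb in either list. Their nearest induced peaks lay 51.4, 13.5, 147, 21.2 and 141 kb away, in that order. The stress-inducible pair Hspa1a and Hspa1b lie 10121 bp apart and are near copies: 296 of 300 bases (98.7%) of their promoter windows were the same at the same position, with a shared run of 201 bases. Short reads from such copies may not be placed, and what this did to peaks there was not tested. Hspa1b had an induced peak of score 71.5 at 3.60 kb past its end, and a non-induced peak of 72.9 overlapped it, the only site within 5 kb of a member that both lists held. It lay at the noncoding gene 1110038B12Rik. Of the heat shock factors, Hsf1 had no peak within 5 kb, and Hsf2 had an induced one of score 60.4 that began 1855 bp inside the gene, the nearest induced peak not counted within 1 kb. The RefSeq promoter entry of Hsf2 places the start 2619 bp inside the gene. That peak ended 2501 bp inside, before this start, and covered 133 of the 300 bases of the promoter window.

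Of the 3 mitochondrial chaperones 1 (33.3%, interval 0.84% to 90.6%) had an induced peak within 1 kb, beside 13.4% of all genes. This was Hspa9, the mitochondrial Hsp70, with a peak of score 67.1 across one end. A second induced peak of 103 lay 4.62 kb from its other end, at Etf1. Hspd1 and Hspe1, the mitochondrial Hsp60 and its co-chaperonin, are head-to-head genes whose starts overlap by 96 bp. Neither list had a peak within 100 kb of them.

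Peaks lay at the starts of these genes rather than their ends. A strand was given for 33 of the 41 members and for 17492 of all genes. Among the 33, 16 (48.5%) had an induced peak within 1 kb of the start, beside 12.7% of all such genes, and 1 (3.03%) had one within 1 kb of the end, beside 1.62%. That 1 was Sdf2l1, a short gene whose single peak reached both limits. Of all genes with a strand and an induced peak at either end, 93.4% had it at the start, so this position is that of the whole list. For 12 of the 16 members (75.0%) the peak nearest to the start covered it, and for 56.3% of 2217 genes overall. Midpoints of these peaks ran between 1161 bp upstream (-1161 bp, Hsp90b1) and 1228.5 bp inside (Bag2), with a median of -2.25 bp. Over all genes the median was 159.5 bp inside. The 4 members whose peak did not cover the start were Hsp90b1 and Canx, with peaks 646 bp and 113 bp upstream, and Eif2ak3 and Bag2, with peaks inside. The Hsp90b1 peak overlapped the neighbouring gene Ttc41 and the Canx peak the noncoding Gm46280. Aptx, a DNA repair gene, has an end within 1 kb of the Dnaja1 peak. The Dnaja1 peak also overlapped the noncoding Gm6297 and the microRNA gene Mir207. The Dnajb1 peak overlapped the noncoding Gm42029, the Calr peak the noncoding 1700122E12Rik and the Dnajb9 peak the microRNA gene Mir5627. The pseudogene Gm8034 has an end within 1 kb of the Syvn1 peak.

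**Figure D3:**
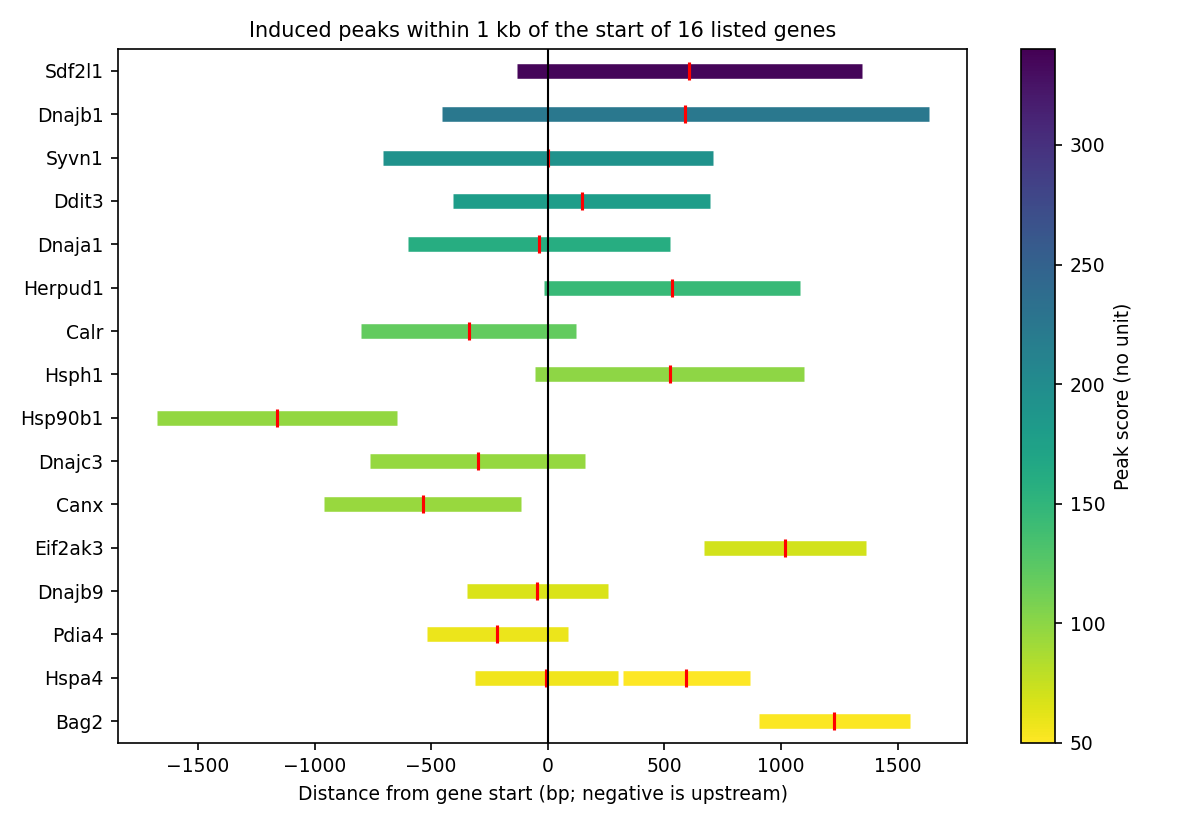
Extent of each induced peak (bars) along the distance from the gene start (horizontal axis, bp, negative is upstream) for the 16 members with a strand and a peak within 1 kb (rows, highest score first). Colour gives the score without unit and red ticks the peak midpoints. Bars of 12 genes cross the start, those of Hsp90b1 and Canx lie upstream and those of Eif2ak3 and Bag2 inside the gene.

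The promoter sequences of the 6 members with the highest induced scores are shown, followed by those of Hspa5 and Hspa1a, both without a peak within 5 kb, which were added after the values were seen. They are the 250 bases before the start, 5′ to 3′ on the strand of the gene, from RefSeq on GRCm38.p6, with each CpG in capitals. The stretches are chr16:17132384-17132633 on the minus strand (Sdf2l1), chr8:83607925-83608174 plus (Dnajb1), chr19:6046326-6046575 plus (Syvn1), chr10:127290543-127290792 plus (Ddit3), chr4:40722218-40722467 plus (Dnaja1), chr8:94386179-94386428 plus (Herpud1), chr2:34771840-34772089 plus (Hspa5) and chr17:34972157-34972406 minus (Hspa1a).
Sdf2l1: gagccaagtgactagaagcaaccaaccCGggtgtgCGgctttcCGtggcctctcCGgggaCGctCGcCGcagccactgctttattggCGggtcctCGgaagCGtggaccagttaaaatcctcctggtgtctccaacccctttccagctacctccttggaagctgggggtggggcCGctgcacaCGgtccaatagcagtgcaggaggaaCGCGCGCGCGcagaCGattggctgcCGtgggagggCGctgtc
Dnajb1: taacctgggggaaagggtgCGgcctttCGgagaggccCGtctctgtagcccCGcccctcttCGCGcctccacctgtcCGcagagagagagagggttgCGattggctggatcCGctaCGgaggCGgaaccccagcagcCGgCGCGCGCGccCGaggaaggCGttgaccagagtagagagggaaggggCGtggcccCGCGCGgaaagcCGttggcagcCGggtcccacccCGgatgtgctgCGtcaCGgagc
Syvn1: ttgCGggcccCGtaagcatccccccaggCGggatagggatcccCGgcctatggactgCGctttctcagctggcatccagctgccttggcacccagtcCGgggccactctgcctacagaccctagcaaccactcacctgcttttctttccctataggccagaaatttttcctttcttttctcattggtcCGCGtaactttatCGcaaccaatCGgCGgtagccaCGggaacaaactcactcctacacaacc
Ddit3: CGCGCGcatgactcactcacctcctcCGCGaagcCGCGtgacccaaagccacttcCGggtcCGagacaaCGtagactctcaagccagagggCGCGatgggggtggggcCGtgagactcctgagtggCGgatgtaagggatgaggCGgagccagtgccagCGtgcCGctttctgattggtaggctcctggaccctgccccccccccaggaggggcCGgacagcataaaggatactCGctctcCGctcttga
Dnaja1: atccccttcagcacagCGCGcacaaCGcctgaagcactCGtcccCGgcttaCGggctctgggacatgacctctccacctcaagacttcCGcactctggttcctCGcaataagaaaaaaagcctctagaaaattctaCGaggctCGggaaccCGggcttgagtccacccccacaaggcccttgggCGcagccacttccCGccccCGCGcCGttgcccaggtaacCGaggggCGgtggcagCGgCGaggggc
Herpud1: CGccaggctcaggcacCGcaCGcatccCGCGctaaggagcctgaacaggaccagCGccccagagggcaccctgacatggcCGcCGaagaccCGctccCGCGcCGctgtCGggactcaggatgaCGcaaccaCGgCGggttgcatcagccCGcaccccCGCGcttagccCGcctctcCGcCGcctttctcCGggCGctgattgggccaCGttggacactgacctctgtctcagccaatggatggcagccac
Hspa5: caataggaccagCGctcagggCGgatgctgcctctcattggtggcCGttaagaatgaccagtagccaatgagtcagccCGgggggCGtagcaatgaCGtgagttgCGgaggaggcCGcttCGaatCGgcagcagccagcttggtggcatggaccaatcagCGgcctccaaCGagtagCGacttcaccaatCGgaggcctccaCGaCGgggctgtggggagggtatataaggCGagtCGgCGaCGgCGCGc
Hspa1a: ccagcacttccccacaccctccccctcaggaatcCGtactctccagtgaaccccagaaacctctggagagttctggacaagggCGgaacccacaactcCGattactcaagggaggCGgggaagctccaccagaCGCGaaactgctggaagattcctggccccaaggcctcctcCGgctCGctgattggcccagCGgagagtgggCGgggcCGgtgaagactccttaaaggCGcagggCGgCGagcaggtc

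In these 250 bases Sdf2l1 has 20 CpG dinucleotides, Dnajb1 27, Syvn1 12, Ddit3 20, Dnaja1 20 and Herpud1 25. Hspa5 has 22 and Hspa1a 14. Over the whole RefSeq window of 300 bases (250 before and 50 after the start), the 33 members with a sequence had 10 to 39 CpG with a median of 25, against a median of 13 over all genes. The 16 with an induced peak and a sequence had a median of 26, and 23 was the median of all genes with an induced peak. Only 17 of the 24 members without a peak (70.8%) had a sequence, under the 80% set as a minimum. Their median was 25, and nothing is concluded from it beside the 26. All genes were just under that minimum too (79.9% with a sequence), so their median of 13 shares this limit. The window lies around the start of the promoter entry, whereas peaks were counted from the gene start. The 2 starts differed by 31 bp in Eif2ak3, 162 bp in Hsph1 and 2619 bp in Hsf2. Hsf2 was counted without a peak within 1 kb, though an induced peak covered 133 bases of its window.

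Genes rich in CpG had induced peaks more often across the genome: 22.5% of genes with at least 13 CpG in the window, and 4.04% of those with fewer. Of the members with a sequence 32 belonged to the first class, and 16 of these (50%) had an induced peak. The only member below was Xbp1, with 10 CpG and no peak. In the class of 14 to 24 CpG 7 of 13 members had a peak, beside 20.7% of all genes, and in the class of 25 to 65 CpG 9 of 19, beside 24.7%. These classes were added after the data were seen. They leave out 7 members without a peak and 1 with one, for want of a sequence, which puts the members' share over all classes at 48.5% instead of 41.5%. The part of CpG content in that share was not tested.

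**Figure D4:**
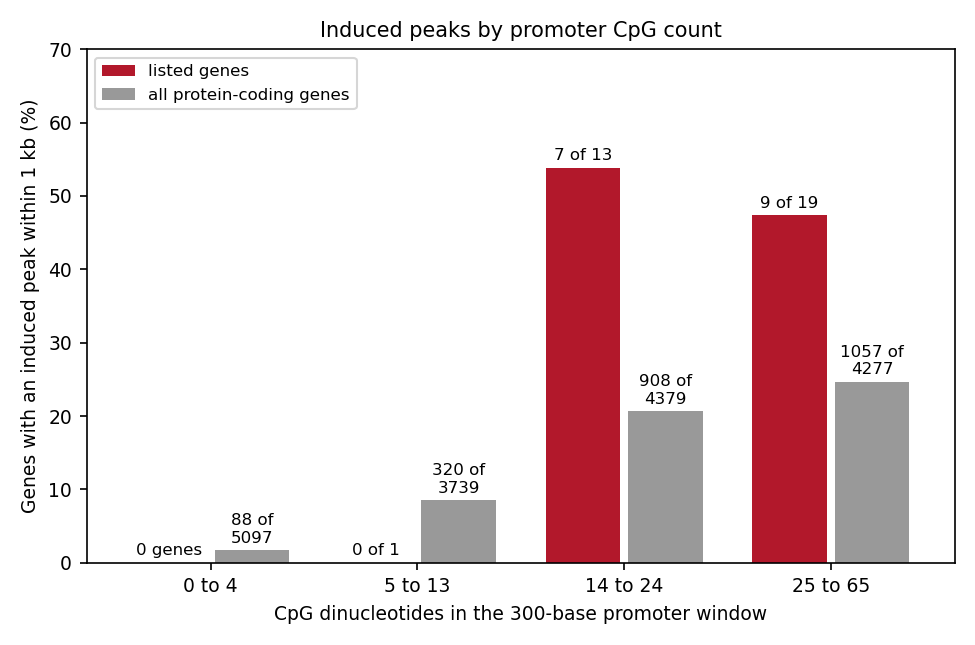
Share of genes with an induced peak within 1 kb (vertical axis, %) by the number of CpG dinucleotides in the 300-base promoter window (horizontal axis, 4 classes). Red bars are the listed genes and grey bars all protein-coding genes with a promoter sequence, with their counts above. All 16 members with a peak are in the upper 2 classes, 7 of 13 and 9 of 19.

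The promoters were also searched, on both strands, for known stress elements. The ER stress element, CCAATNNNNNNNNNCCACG, is bound by NF-Y and Atf6. It was found in 8 of the 33 members with a sequence (24.2%) and in 28 of 17492 promoters (0.16%). Its matches are shown on the strand of the motif with the fixed letters in capitals.
Hspa5: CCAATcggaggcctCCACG
Hsp90b1: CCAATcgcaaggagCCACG
Hsp90b1: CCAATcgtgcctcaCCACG
Calr: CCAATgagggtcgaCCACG
Canx: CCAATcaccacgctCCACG
Pdia6: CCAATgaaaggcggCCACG
Dnajc3: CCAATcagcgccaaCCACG
Creld2: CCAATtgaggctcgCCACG
Syvn1: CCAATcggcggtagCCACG

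Of these 8 genes, Hsp90b1, Calr, Canx, Dnajc3 and Syvn1 had an induced peak within 1 kb, and Hspa5, Pdia6 and Creld2 had none. The peak covered the element in Calr, Canx, Dnajc3 and Syvn1, whereas in Hsp90b1, which holds 2 of them, it lay farther upstream. Having the element and having a peak thus overlapped in 5 of 8 genes, beside 16 of 33 members in all. The shorter ER stress element II, ATTGGNCCACG, was found in Herpud1 and Dnajb11 and in 0.0515% of all promoters. The peak of Herpud1 began downstream of it and Dnajb11 had no peak. The XBP1 core TGACGTG was in Hspa5 alone among members and in 2.18% of all promoters. The cAMP response element, TGACGTCA (2.33% of promoters), shares its first 6 letters, and no single stretch matches both. 

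The heat shock element, searched as GAANNTTCNNGAA, was found in 2 of the 33 members, Hspe1 and Hsph1, and in 84 promoters overall (0.48%). The element of Hsph1 lay within its induced peak, and Hspe1, with 2 overlapping matches, had no peak. The cAMP response element given above and the C/EBP-ATF site TGATGCAAT (0.189% of promoters) were in none of the 33. These searches describe letters in a window, and neither a match nor its absence tells anything about binding.

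The wider pathway was read from a further list of 115 genes, also chosen with earlier results of these data known. Of these 37 (32.2%, interval 23.8% to 41.5%) had an induced peak within 1 kb, beside 13.4% of all genes. Of all genes with at least 13 CpG in the promoter window, 22.5% had an induced peak. The part of CpG content in the share of the 115 genes was not tested. A non-induced peak was found in 1 of the 115 (0.87%), beside 1.59% of all genes, so that count is no result about these genes. The list was split into classes by part of the pathway, which is not always where the protein lies. The induced count was 14 of 54 genes in the ER class (25.9%), 7 of 12 in the mitochondrial (58.3%) and 16 of 49 in the cytosolic (32.7%). The highest in the ER class were Pdia5, a disulfide isomerase (181), Stc2, a secreted stress protein (139), the thioredoxin-domain gene Txndc11 (129) and Ufd1, a partner of the Vcp segregase (118). In the cytosolic class they were Chordc1, an Hsp90 co-chaperone (193), Bag1, an exchange factor (144.45), the testis-rich Hsp70 gene Hspa2 (144.29) and Hsf4, a heat shock factor of the lens (125). In the mitochondrial class they were the Hsp40 Dnaja3 (109), the protease Lonp1 (99.6), Dnajc19, related to a yeast import motor subunit (90.5), and the iron-sulfur co-chaperone Hscb (71.7). Hspa13, a microsomal Hsp70, had the one non-induced peak, of score 56.2. Chaperonin subunits were mixed: Tcp1 (70.9), Cct4 (55.3), Cct5 (54.9) and Cct7 (88.2) had induced peaks, and Cct2, Cct3, Cct6a and Cct8 had none.

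Of the 41 members 8 (19.5%) had their nearest induced peak between 5 and 25 kb away, where 11.7% of all genes had theirs. A further 3 (7.32%) had it between 25 and 100 kb, beside 22.0% of all genes, and 10 (24.4%) farther, beside 47.9%. In the non-induced list 2 members (4.88%) had their nearest peak between 5 and 25 kb away, beside 12.1% of all genes. There 8 (19.5%) had it between 25 and 100 kb, beside 24.6%, and 27 (65.9%) farther, beside 57.9%. The 4 non-induced peaks within 5 kb of members had scores of 50.4 (Pdia3), 53.5 (Bag2), 55.1 (Sdf2l1, 3.95 kb past its end) and 72.9 (Hspa1b). The non-induced list as a whole had a median score of 60.2. Near Sdf2l1 another induced peak of score 102 lay 4.62 kb past the end, at 2610318N02Rik and the microRNA genes Mir130b and Mir301b, and did not overlap the non-induced peak.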

How the data were processed

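Peak lists from HA ChIP-seq of induced and non-induced MEFs were read, 1 per condition. The HA antibody (5 µg) was used on 7 µg of chromatin, per the labels' protocols. Bowtie2 and mm10 are named in the submitters' processing notes, and peak names in the deposited files carry the mark of MACS. For versions, threshold and pooling, the sources used here give nothing. The names of both lists carry the mark inp, which may stand for the input. How the input was used is not stated. The deposited score of each peak comes from the authors' caller, its formula is not stated, and it was used within a list except where an alternative set both lists to the same limit. Lists were matched to titles by their marks for with and without.

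Genes came from RefSeq GRCm38.p6, which has mm10 coordinates. All 41 members and 115 further genes matched by symbol. Strands and promoters came from a RefSeq table, by the entry nearest to the gene start. A gene counted when any base of a peak lay within 1 kb (or 5 kb) of either end. Intervals of shares are Clopper-Pearson at 95%; a count of 0 was given the limit that 3 counts allow. The members and lists were chosen with earlier results of these data known. Every member is reported. Further genes were named by the 4 highest induced scores per class and any non-induced peak, both within 1 kb. The chaperonin subunits were added after their values were seen. The gene search differed from bedtools 2.31.1 in 0 genes and was tested on simulated data. Tools were SciPy 1.17.1, pandas 2.3.3, numpy 2.4.6 and matplotlib 3.10.9 under Python 3.11.15. Alternatives were other windows, score limits, equal list sizes, peak midpoints, starts alone, different peaks and an autosomal background.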

Additional observations from a re-analysis of the deposited data

How the results depend on the processing

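The count of 17 members with an induced peak within 1 kb ran between 14 and 20 over several settings. Windows were 500 bp, 2 kb and 5 kb. Other settings were scores from the median of both lists together (61.6) upward, equal list sizes and peak midpoints. Over these settings the share of all genes ran between 9.8% and 18.4%. With gene starts alone the count was 16 of the 33 members with a strand, beside 12.7% of such genes. The 18 different peaks are a count of peaks, not of members. With a score of at least 100 the count of members was 7 within 1 kb, beside 4.25% of all genes, and 8 within 5 kb, beside 5.71%. Against 19207 autosomal genes without olfactory and vomeronasal receptors the background was 15.2%. The non-induced count of 0 became 1 with a window of 2 kb (2.63% of all genes) and 4 with one of 5 kb (5.36%). Within 5 kb the non-induced count of 4 became 1 from that median upward (2.54% of all genes), 1 with lists of equal size (2.87%) and 0 at a score of at least 100 (0.265%), so it was near the background there. The limits of score and size within 5 kb and the CpG classes were added after the data were seen. The median score of 96.4 was 95.5 within 5 kb and 96.7 by the highest peak per gene. The observed over expected CpG ratio is on another scale. Its median was 0.836 in members with a peak and 0.901 in those without, of which only 70.8% had a sequence. It was 0.811 in all genes with an induced peak and 0.577 in all genes. No paired analysis was possible because each condition has 1 list and no test was run. Both lists enter with unknown depth, and a common scale of their scores was not tested.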
